A study of Homo sapiens with 4 samples.

Results

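To examine the Hippo pathway after depletion of KIAA1429, 10 genes chosen by name were followed: the coactivators YAP1 and WWTR1 (the protein TAZ), their DNA-binding partner TEAD1, the kinases STK3, STK4, LATS1 and LATS2, the angiomotin family member AMOTL2, and the target genes CTGF (now CCN2) and CYR61 (now CCN1). All 10 were listed in the data, with 43 of the 38510 listed transcripts and 10 of the 13036 listed genes. RNA was sequenced from HCCLM3, a human hepatoma cell line, in 2 samples infected with lentivirus carrying a control short hairpin (shCtrl) and 2 samples infected with lentivirus carrying a hairpin against KIAA1429 (shKIAA1429), as stable knockdown. KIAA1429, listed under its current symbol VIRMA, is a subunit of the methyltransferase that places N6-methyladenosine (m6A) marks on messages. All samples share the same cell line and a lentiviral hairpin, and no source used here says whether the replicates were separate infections or cultures, so p-values measure the spread between these samples, which may be technical.

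The values are FPKM (fragments of a transcript relative to its length and to all fragments of the library), so levels of different genes can be set side by side per length. A gene's level is the sum of its listed transcripts. Fold changes, always shKIAA1429 relative to shCtrl, were computed from log2(FPKM + 1), a scale that shrinks the differences of weakly expressed genes, with standard errors (SE), 95% intervals and Benjamini-Hochberg adjusted p-values over all 11657 genes tested with limma. A change was called at an adjusted p under 0.05 with an absolute log2 fold change over 1. For a single gene, 2 samples against 2 allow 6 arrangements, so that the exact two-sided permutation test cannot go below p = 0.333.

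In the Hippo pathway, the MST kinases (STK3 and STK4) phosphorylate and activate the LATS kinases, and LATS phosphorylates YAP and TAZ. Phosphorylated YAP and TAZ are held in the cytoplasm or degraded. Unphosphorylated YAP and TAZ enter the nucleus, bind TEAD factors and drive genes such as CTGF and CYR61, and in liver the pathway is known for restraining organ size and tumour growth. LATS2 and AMOTL2 are themselves YAP target genes that act back on the pathway. Since much of this control acts on proteins by phosphorylation, RNA levels describe the amounts of message and not the activity of the kinases or coactivators.

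The first sequences shown are those that separate the major YAP1 transcripts, because these transcripts exchanged between replicates in both groups. The exon lies at chr11:102056749-102056862 of GRCh37 on the plus strand, is 114 bases long, is coding throughout and is held by YAP1-201 and skipped by YAP1-202. It belongs to the second WW domain, the module that YAP uses to bind PPxY motifs, and the capitals mark its 2 in-frame tryptophan codons. The second sequence is 12 coding bases at chr11:102076806-102076817 of GRCh37, which YAP1-202 has at the end of its following exon and YAP1-201 lacks.
YAP1 exon of the second WW domain: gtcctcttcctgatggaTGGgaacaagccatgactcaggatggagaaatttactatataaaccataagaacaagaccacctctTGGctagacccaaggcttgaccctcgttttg
YAP1-202 added bases: gtgaggccacag

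The other sequences show where the TEAD recognition motif GGAATG (or its reverse complement CATTCC on the minus strand of the gene) was found in members' promoters, since TEAD1 is itself a member. The 250 bases before each RefSeq start site (GRCh38.p14) were searched on both strands. Of 35116 promoters, 11.9% held at least 1 site and 29 (0.0826%) held 3 or more. An entry was found for 7 of the 10 members, with 10 promoters between them, and 3 members held a site. TEAD1, STK3 and CYR61 had no entry and were not searched. CTGF held 3 sites, which began 169, 104 and 95 bases before the start, YAP1 held 1 at 162 bases, and the second AMOTL2 promoter held 1 at 69 bases on the opposite strand. The windows are from chr6:131951442-131951561 on the minus strand for CTGF, chr11:102110265-102110310 on the plus strand for YAP1, and chr3:134374491-134374536 on the minus strand for AMOTL2, with the motif in capitals. A match describes the letters and is not evidence of binding.
CTGF promoter: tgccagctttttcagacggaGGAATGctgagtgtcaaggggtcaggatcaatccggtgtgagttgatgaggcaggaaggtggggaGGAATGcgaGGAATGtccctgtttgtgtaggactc
YAP1 promoter: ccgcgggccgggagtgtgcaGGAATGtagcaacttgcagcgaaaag
AMOTL2 second promoter: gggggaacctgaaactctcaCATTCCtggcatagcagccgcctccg

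The libraries were checked next. Read depth is unknown, since the files give normalized values, and no counting error can be attached to a single value. The targeted gene VIRMA had 9.37 and 14.1 FPKM in shCtrl and 6.90 and 8.52 FPKM in shKIAA1429. Both shKIAA1429 samples were lower, and the difference did not pass the test (log2 fold change -0.53, SE 0.24, adjusted p = 0.917 with limma). The summed FPKM ranged from 370253 to 390224, and mitochondrial transcripts took 9.29% to 10.6% of it. Keratins of epithelial cells were abundant, with 3 of 5 epithelial markers listed and a sum of 2440 to 2664 FPKM, but EPCAM and CDH1 were not among the listed transcripts. Of 10 hepatocyte markers 1, SERPINA1, was listed, at 3.34 to 5.63 FPKM, while ALB, AFP, APOA1 and HNF4A were not. Of the markers of other cells, 2 of 4 leukocyte genes summed to 46.7 to 56.3 FPKM, mostly from CD68, 4 of 5 fibroblast genes summed to 64.8 to 74.0 FPKM, and 0 of 4 endothelial genes were listed. The leukocyte marker PTPRC was not listed. The marker sums overlapped between the groups for leukocyte genes and were higher in both shKIAA1429 samples for epithelial genes, fibroblast genes and SERPINA1. Within these sums, KRT19 (364 and 350 FPKM in shCtrl, 461 and 458 FPKM in shKIAA1429) did not overlap. COL3A1 (61.9 and 55.8 FPKM in shCtrl, 63.6 and 62.2 FPKM in shKIAA1429) did not overlap either. The groups overlapped for KRT8, KRT18, COL1A1, DCN and PDGFRB. The part of the markers in the results was not tested.

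Across all genes tested, 0 (0%) met the criteria for a call, and an unadjusted p under 0.05 was reached by 656 (5.63%). Both shKIAA1429 samples lay below both shCtrl samples in 16.7% of genes and above them in 16.9%. Against this background, 3 of the 10 members (WWTR1, TEAD1 and LATS2) were lower in both shKIAA1429 samples, 0 were higher in both, and the groups overlapped for 7. None of the 10 passed the test, and none had an unadjusted p under 0.05 in this fit. The intervals of 9 of the 10 members lay within a log2 change of 1 in either direction, the exception being LATS2.

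The levels of the members spanned a wide range. CYR61 was the highest per length, above 99.3% of all listed genes, and LATS1 the lowest, above 27.1%. In order of mean FPKM over the 4 samples the members were CYR61, AMOTL2, CTGF, TEAD1, LATS2, YAP1, WWTR1, STK4, STK3 and LATS1. Neighbours whose ranges over the samples overlapped were TEAD1 with LATS2, LATS2 with YAP1, and WWTR1 with STK4. The remaining neighbours in this order had ranges that did not overlap. In bulk RNA, fewer cells expressing a gene and less RNA per cell cannot be told apart.

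**Figure D1:**
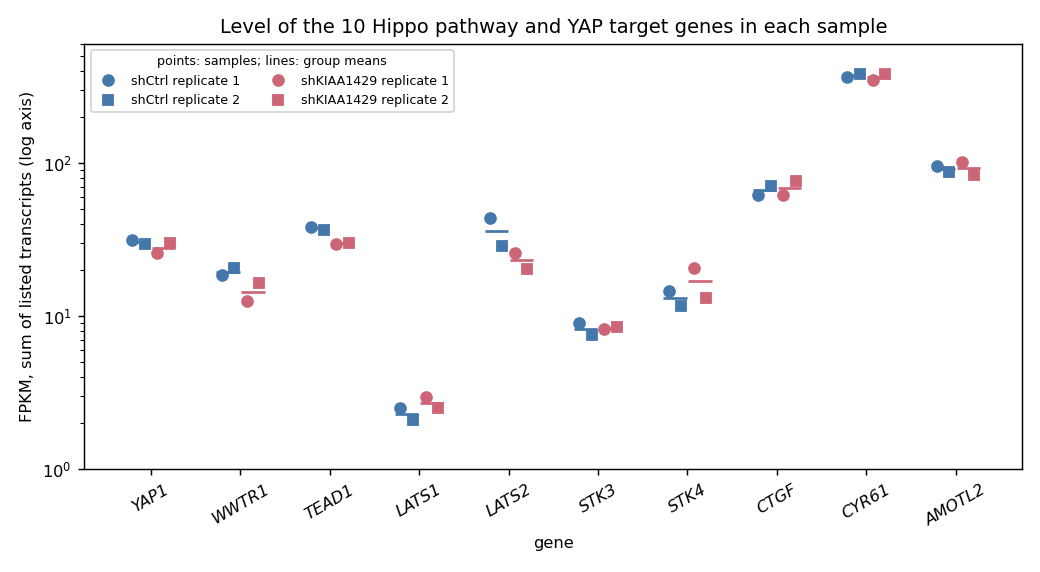
Level of each member (FPKM, sum of listed transcripts, log axis) in the 4 samples, shCtrl in blue and shKIAA1429 in red, with circles for replicate 1, squares for replicate 2 and short lines for group means. The red points lie below the blue points for WWTR1, TEAD1 and LATS2 and overlap them for the other 7 genes, and the levels run from 2.09 FPKM for LATS1 to 384 FPKM for CYR61.

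Among the coactivators, YAP1 was little different between the groups and WWTR1 was lower in shKIAA1429. YAP1 (chr11:101981192-102104154 of GRCh37, plus strand) had 31.6 and 29.7 FPKM in shCtrl and 26.0 and 30.2 FPKM in shKIAA1429. The groups overlapped, with shKIAA1429 replicate 1 the lowest sample (log2 fold change -0.13, SE 0.15, 95% interval -0.50 to 0.25, adjusted p = 0.987 with limma). WWTR1 (chr3:149235022-149421060 of GRCh37, minus strand) had 18.5 and 20.6 FPKM in shCtrl and 12.5 and 16.5 FPKM in shKIAA1429. The means were 19.5 ± 1.48 and 14.5 ± 2.83 FPKM (SD, n = 2 each), a difference in mean FPKM of -25.9%, and the groups did not overlap. The log2 fold change of WWTR1 was -0.42 (SE 0.18, 95% interval -0.89 to 0.06, adjusted p = 0.907 with limma). The FPKM ratio of YAP1 to WWTR1 was 1.71 and 1.44 in shCtrl and 2.08 and 1.83 in shKIAA1429, so that YAP1 was the more abundant message in every sample.

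TEAD1, the DNA-binding partner that carries YAP and TAZ to their targets, had the closest replicates among the 3 lower members. The gene lies at chr11:12696138-12966030 of GRCh37 on the plus strand. It had 38.4 and 36.7 FPKM in shCtrl and 29.7 and 30.2 FPKM in shKIAA1429. The means were 37.5 ± 1.18 and 29.9 ± 0.389 FPKM (SD, n = 2 each), a difference in mean FPKM of -20.2%. The log2 fold change was -0.32 (SE 0.13, 95% interval -0.64 to 0.01, adjusted p = 0.888 with limma, exact permutation p = 0.333). By rank of unadjusted p, TEAD1 was at position 713 of the genes tested. The TEAD family also included TEAD4, named here after its values were seen, at 57.1 and 72.3 FPKM in shCtrl and 49.5 and 55.4 FPKM in shKIAA1429, above TEAD1 in every sample. TEAD2 and TEAD3 lay between 9.68 and 11.8 FPKM.

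The LATS kinases, which phosphorylate YAP and TAZ, differed in level, and only LATS2 had groups that did not overlap. LATS2 (chr13:21547171-21635686 of GRCh37, minus strand) had 43.7 and 28.9 FPKM in shCtrl and 26.0 and 20.4 FPKM in shKIAA1429. Both shKIAA1429 samples were below both shCtrl samples, but the shCtrl replicates stood further apart than the closest samples of different groups did. The means were 36.3 ± 10.4 and 23.2 ± 3.98 FPKM (SD, n = 2 each), a difference in mean FPKM of -36.2%, the largest fall in mean among the 10 members. The log2 fold change was -0.61 (SE 0.25, 95% interval -1.25 to 0.04, adjusted p = 0.897 with limma), and leaving out shCtrl replicate 1 gave -0.32 while leaving out shCtrl replicate 2 gave -0.90. LATS1 had 2.50 and 2.09 FPKM in shCtrl and 2.96 and 2.50 FPKM in shKIAA1429, with overlapping groups (log2 fold change 0.18, SE 0.17, 95% interval -0.26 to 0.62). LATS2 was thus the main LATS message per length, and the FPKM ratio of LATS2 to LATS1 was 17.5 and 13.8 in shCtrl and 8.78 and 8.14 in shKIAA1429. The ratios of the groups did not overlap, which already held for LATS2 alone, and no test was run on the ratios.

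The MST kinases, which act above LATS, showed no difference that held over the replicates. STK3 (MST2) had 9.02 and 7.50 FPKM in shCtrl and 8.22 and 8.51 FPKM in shKIAA1429 (log2 fold change 0.02, SE 0.16, 95% interval -0.39 to 0.43). STK4 (MST1) had 14.7 and 11.6 FPKM in shCtrl and 20.7 and 13.1 FPKM in shKIAA1429. shKIAA1429 replicate 1 was the highest sample for STK4, and the groups overlapped (log2 fold change 0.31, SE 0.26, 95% interval -0.36 to 0.98). Without that sample the log2 fold change of STK4 was 0.0053.

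The target genes CTGF and CYR61, secreted matricellular proteins that are the usual readouts of YAP and TAZ, were high and close to equal in the groups. CTGF (chr6:132269316-132272513 of GRCh37, minus strand) had 61.5 and 71.5 FPKM in shCtrl and 62.0 and 76.1 FPKM in shKIAA1429. In both groups replicate 2 was the higher sample, and the groups overlapped (log2 fold change 0.05, SE 0.16, 95% interval -0.37 to 0.47, adjusted p = 0.999 with limma). CYR61 (chr1:86046444-86049645 of GRCh37, plus strand) had 364 and 384 FPKM in shCtrl and 349 and 384 FPKM in shKIAA1429, with a log2 fold change of -0.03 (SE 0.11, 95% interval -0.31 to 0.24, adjusted p = 0.999 with limma). The FPKM ratio of CYR61 to CTGF was 5.92, 5.38, 5.62 and 5.05 in shCtrl replicates 1 and 2 and shKIAA1429 replicates 1 and 2. AMOTL2, an angiomotin that binds YAP and retains it outside the nucleus, had 95.9 and 87.6 FPKM in shCtrl and 102 and 84.3 FPKM in shKIAA1429 (log2 fold change 0.01, SE 0.15, 95% interval -0.37 to 0.39). CTGF, with 3 TEAD motifs before its start, and AMOTL2 and YAP1, with 1 each, all had overlapping groups. No site was found in the windows searched for WWTR1 and LATS2, which were lower, nor for LATS1 and STK4, whose groups overlapped. TEAD1, which was lower, and CYR61 and STK3, whose groups overlapped, were not searched. The intervals of CTGF, CYR61 and AMOTL2 bound any difference between the groups and do not show that there was none.

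**Figure D2:**
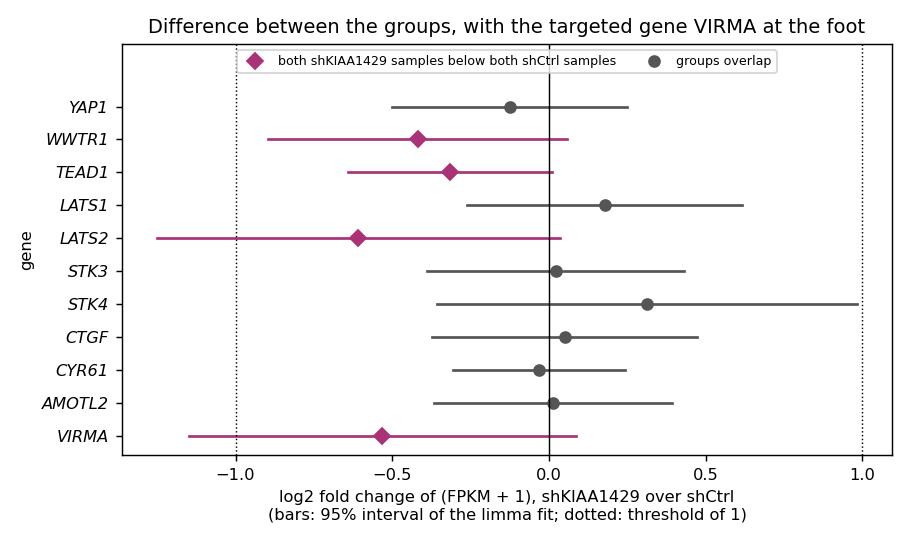
Log2 fold change of FPKM + 1, shKIAA1429 over shCtrl, for the 10 members and for VIRMA, with bars for the 95% interval of the limma fit and dotted lines at the threshold of 1. Diamonds mark the genes lower in both shKIAA1429 samples (WWTR1, TEAD1, LATS2 and VIRMA), and the intervals of all 11 genes include 0.

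Next, the listed transcripts of each member were examined, since the sum can hide an exchange between them. The members had 1 (CTGF) to 10 (AMOTL2) listed transcripts. Of the 43, 35 passed the filter of 1 FPKM in at least 2 samples, 8 were lower and 3 higher in both shKIAA1429 samples, and 0 passed the test or had an unadjusted p under 0.05 (lowest adjusted p = 0.913 with limma over 24996 transcripts). Over all transcripts tested, 0 (0%) met the criteria for a call, 6.28% had an unadjusted p under 0.05, 16.8% were lower in both shKIAA1429 samples and 16.7% were higher in both. The other 8 member transcripts stayed under the filter.

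The 3 lower members differed in how the fall was spread over their transcripts. LATS2 was almost a single message, LATS2-201, a coding transcript of 8 exons that made up 95.4% to 96.3% of the gene, with 41.9 and 27.9 FPKM in shCtrl and 24.8 and 19.5 FPKM in shKIAA1429. TEAD1-203, a coding transcript that starts within the gene, made up 65.3% to 71.1% of TEAD1, with 26.8 and 24.3 FPKM in shCtrl and 19.4 and 21.5 FPKM in shKIAA1429. TEAD1-206, which spans the gene, had 6.37 and 6.25 FPKM in shCtrl and 4.72 and 4.76 FPKM in shKIAA1429, so both of these TEAD1 transcripts were lower in both shKIAA1429 samples. In WWTR1, the transcript with the highest mean, WWTR1-203, had 8.79 and 11.9 FPKM in shCtrl and 6.97 and 10.3 FPKM in shKIAA1429, and its groups overlapped. WWTR1-201, which has the same coding length of 1200 bases from another first exon, had 5.78 and 5.10 FPKM in shCtrl and 4.25 and 2.81 FPKM in shKIAA1429, without overlap. The short WWTR1-209 had 2.81 and 2.87 FPKM in shCtrl and 0.271 and 2.33 FPKM in shKIAA1429.

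The major YAP1 transcripts differed far more between replicates than between groups. YAP1-201, which holds the exon of the second WW domain printed above, had 2.77 and 15.5 FPKM in shCtrl and 0.851 and 14.8 FPKM in shKIAA1429. YAP1-202, which skips that exon and carries the 12 added bases, had 13.9 and 0.228 FPKM in shCtrl and 11.8 and 0.192 FPKM in shKIAA1429. Replicate 1 of each group was thus high in YAP1-202 and replicate 2 of each group was high in YAP1-201. YAP1-207, which starts inside the exon, varied less, at 7.51 and 7.09 FPKM in shCtrl and 6.16 and 6.72 FPKM in shKIAA1429. Over all 8 listed YAP1 transcripts, those holding at least part of the exon (5 transcripts) made up 48.2% and 89.6% of YAP1 FPKM in shCtrl and 46.1% and 89.2% in shKIAA1429. The summed level of the gene, 26.0 to 31.6 FPKM, did not move with this exchange. The tool that divided reads between transcripts is not stated in the sources used here, and its part in the exchange was not tested.

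AMOTL2 showed an exchange that followed neither the group nor the replicate number. AMOTL2-202, whose first exon of 106 bases is noncoding, had 11.1 and 46.3 FPKM in shCtrl and 47.8 and 7.74 FPKM in shKIAA1429. AMOTL2-212, whose own first exon of 292 bases holds 113 coding bases, had 25.0 and 0 FPKM in shCtrl and 0 and 20.4 FPKM in shKIAA1429. AMOTL2-201 had 16.6 and 5.30 FPKM in shCtrl and 7.24 and 18.2 FPKM in shKIAA1429. shCtrl replicate 1 and shKIAA1429 replicate 2 were therefore high in AMOTL2-212 and AMOTL2-201, and the other samples were high in AMOTL2-202.

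In both MST kinases, shKIAA1429 replicate 1 stood apart from the other 3 samples. STK4-201, which has a 95-base exon that STK4-202 lacks, had 8.97 and 3.80 FPKM in shCtrl and 0.0116 and 6.88 FPKM in shKIAA1429. STK4-202 had 4.77 and 3.37 FPKM in shCtrl and 17.2 and 3.59 FPKM in shKIAA1429. STK3-218, which lacks 2 coding exons of 168 and 165 bases, had 4.96 and 2.70 FPKM in shCtrl and 0 and 4.51 FPKM in shKIAA1429, and STK3-201, which holds them, had 3.57, 4.70, 7.29 and 3.85 FPKM in the same order. The high STK4 sum of shKIAA1429 replicate 1 came from STK4-202.

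The frequency of such swings was counted by a measure chosen after these values were seen. Of 8716 transcripts with a mean of at least 5 FPKM, 169 (1.94%) differed at least 5-fold between replicates in both groups. Among the members these were 3 of 17, namely YAP1-201, YAP1-202 and AMOTL2-212. In at least 1 group, 844 transcripts (9.68%) did so, with 4 of the 17 member transcripts, AMOTL2-202 being the fourth. STK4-201 and STK3-218 were below this level by their mean. Of 7476 genes at that level, the sums of 8 (0.107%) differed at least 5-fold in both groups and of 42 (0.562%) in at least 1 group. Neither count held any of the 9 members at that level.

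**Figure D3:**
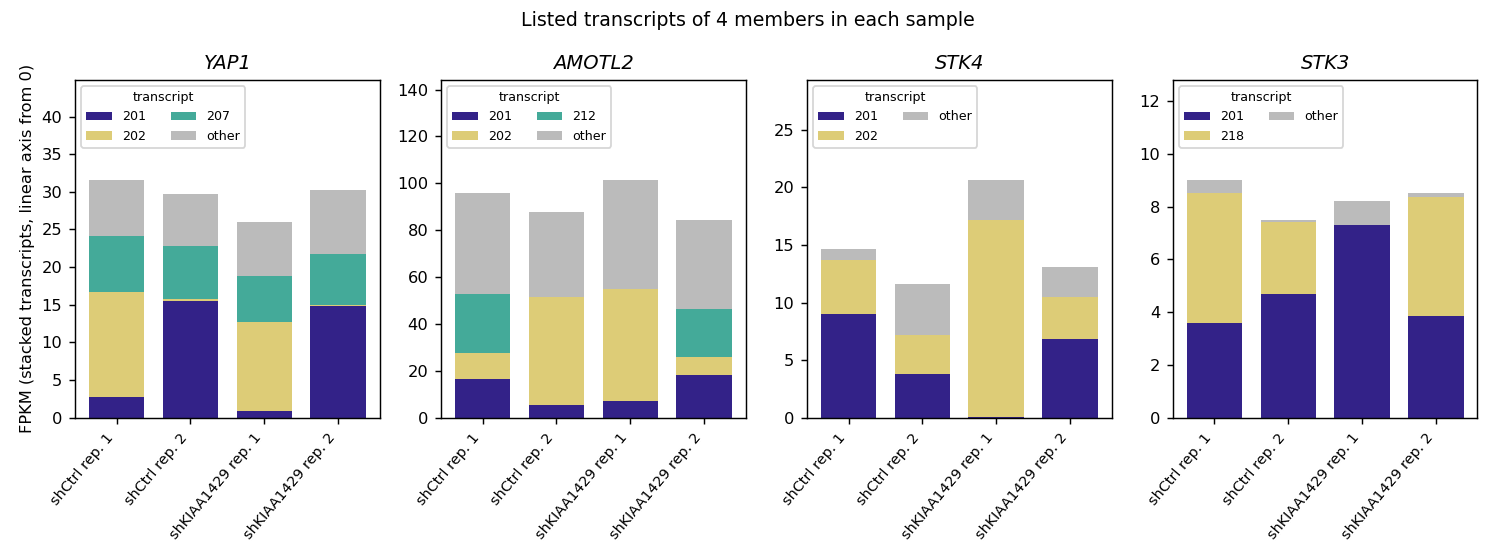
FPKM of the listed transcripts of YAP1, AMOTL2, STK4 and STK3, stacked by sample on linear axes from 0, with all other transcripts pooled in grey. YAP1-201 (dark) and YAP1-202 (yellow) exchange between replicates 1 and 2 of both groups, and in shKIAA1429 replicate 1 STK4-202 and STK3-201 make up most of their genes.

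To place the members in their pathway, a list of 76 Hippo pathway genes was examined, of which 73 were listed in the data and 72 were tested, 8 of them members. AMOT, CRB3 and VGLL1 were not listed, and PATJ did not pass the filter. Of the 72, 33 had a higher and 39 a lower mean in shKIAA1429 (54.2% lower, beside 51.9% of all genes). Without overlap, 6 were higher and 19 lower (8.33% and 26.4%, beside 16.9% and 16.7% of all genes), and 0 passed the test. The median log2 fold change was -0.03, beside -0.01 over all genes tested. Without the members, 6 were higher and 16 lower without overlap among 64 genes (9.38% and 25.0%, beside the same shares of all genes).

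The counts without overlap by role stand beside 16.7% of all genes lower and 16.9% higher. Each role held few genes, and none was tested. The coactivators, TEAD factors and VGLL cofactors had 3 of 8 genes lower and 0 higher without overlap. The core kinases with their adaptors had 4 of 9 lower and 1 higher, and the MAP4K and TAO kinases, which can act on LATS beside MST, had 3 of 9 lower and 1 higher. The upstream scaffolds had 3 of 12 lower and 1 higher, and the polarity proteins and cadherins had 2 of 11 lower and 1 higher. STRIPAK, the phosphatase complex that removes the activating phosphate from MST, had 3 of 13 lower and 2 higher. The phosphoserine-binding proteins and turnover factors that hold or degrade phosphorylated YAP had 1 of 10 lower and 0 higher.

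Of the pathway genes that are not members, DCHS1 and SLMAP had the largest log2 fold changes without overlap. DCHS1, a cadherin that binds FAT4 on neighbouring cells, had 0.933 and 0.747 FPKM in shCtrl and 3.15 and 2.44 FPKM in shKIAA1429. Its level was low in every sample, both shKIAA1429 samples were higher, and the log2 fold change was 1.04 (SE 0.18, 95% interval 0.57 to 1.51, adjusted p = 0.432 with limma). SLMAP, the adaptor that brings STRIPAK to phosphorylated MST, had 18.0 and 16.7 FPKM in shCtrl and 8.09 and 8.21 FPKM in shKIAA1429, with a log2 fold change of -1.004 (SE 0.14, 95% interval -1.36 to -0.64, adjusted p = 0.348 with limma). That difference came from 1 of its 7 listed transcripts. SLMAP-218, a processed transcript of 2 exons and 556 bases at the start of the gene (chr3:57741177-57742794 of GRCh37), had 10.7 and 9.58 FPKM in shCtrl and was listed at 0 in both shKIAA1429 samples. The other 6 transcripts, annotated as coding, summed to 7.28 and 7.12 FPKM in shCtrl and 8.09 and 8.21 FPKM in shKIAA1429. The coding transcripts together were therefore not lower, and their sum was the higher in both shKIAA1429 samples. SLMAP stands among the lower genes in the counts of the pathway and of STRIPAK only through SLMAP-218.

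The other pathway genes described by the same rule had smaller changes, and none passed the test. MPP5, a scaffold of the Crumbs polarity complex, had a log2 fold change of -0.54 (SE 0.22). SIKE1, a STRIPAK subunit, was higher by 0.50 on the log2 scale (SE 0.21). WWC1 (KIBRA), a scaffold that promotes LATS activation, STRN4, a regulatory subunit of the STRIPAK phosphatase, and TNIK, a kinase of the MAP4K family, had log2 fold changes of -0.36, -0.33 and -0.33. Their adjusted p-values with limma ran from 0.895 to 0.928. Without shKIAA1429 replicate 1 the log2 fold changes of MPP5, SIKE1 and STRN4 were -0.27, 0.27 and -0.19, and without shKIAA1429 replicate 2 MPP5 was -0.82.

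Subsequently, 22 YAP and TAZ target genes were examined, all of them listed and tested, 4 of them members. Of the 22, 7 had a higher and 15 a lower mean in shKIAA1429 (68.2% lower, beside 51.9% of all genes). Without overlap, 4 were higher and 5 lower (18.2% and 22.7%, beside 16.9% and 16.7% of all genes), and 0 passed the test. The median log2 fold change was -0.07, beside -0.01 over all genes tested. Without the members, 4 were higher and 4 lower without overlap among 18 genes (22.2% each, beside the same shares of all genes). AMOTL2, LATS2 and PTPN14 are in both the pathway list and the target list.

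F3, tissue factor, which starts blood coagulation, had the largest change among the targets. It had 112 and 99.7 FPKM in shCtrl and 62.0 and 67.7 FPKM in shKIAA1429, without overlap (log2 fold change -0.70, SE 0.13, 95% interval -1.04 to -0.36, adjusted p = 0.477 with limma). ANKRD1, an ankyrin repeat protein often used as a YAP readout, had 72.6 and 55.6 FPKM in shCtrl and 49.1 and 41.4 FPKM in shKIAA1429 (log2 fold change -0.49, SE 0.19). NUAK2, an AMPK-related kinase, and FJX1, a secreted homologue of a fly planar polarity protein, had log2 fold changes of -0.40 and -0.30. FOXF2, a forkhead transcription factor, AXL, a receptor tyrosine kinase, CCDC80, an extracellular matrix protein, and ARHGEF17 were higher without overlap, with log2 fold changes of 0.23, 0.21, 0.13 and 0.09. Leaving out 1 sample moved NUAK2 to -0.26 (shCtrl replicate 1), ANKRD1 to -0.30 (the same sample), AXL to 0.092 (shKIAA1429 replicate 1) and FOXF2 to 0.14 (shKIAA1429 replicate 2). The targets thus lay on both sides of 0, more of them below it, with CTGF and CYR61 near 0, and none passed the test.

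**Figure D4:**
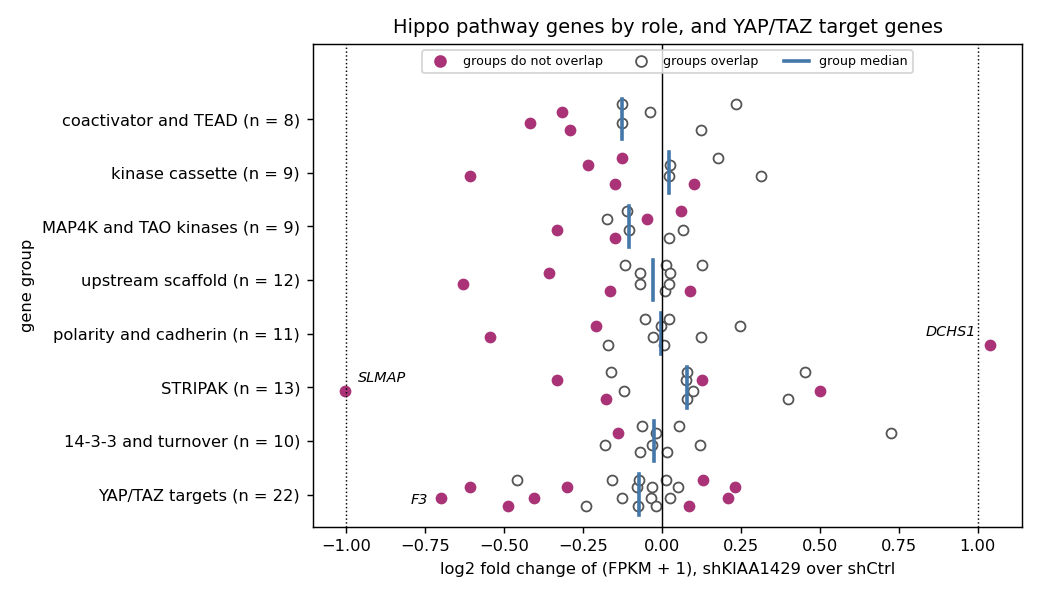
Log2 fold change of FPKM + 1, shKIAA1429 over shCtrl, of each tested Hippo pathway gene by role and of the YAP and TAZ target genes, members included, with filled points where the groups do not overlap and blue bars for the medians. Most genes lie between -0.5 and 0.5, the pathway median is -0.03 and the target median -0.07, and DCHS1 and SLMAP lie furthest from 0.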

How the data were processed

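RNA from 2 shCtrl and 2 shKIAA1429 samples of HCCLM3 was sequenced, and groups and replicate numbers were taken from the sample titles. The deposited files hold FPKM per transcript, made by the authors with GRCh37 (hg19) positions. Bowtie2 2.1.0 is named in the submitters' processing notes, and the methods of the study also name TopHat, HTSeq and DESeq for a count analysis, not used here. The tool behind the FPKM, the strand setting and the depth are not given in the sources used here. Every listed transcript exceeded 0.5 FPKM in at least 1 sample (lowest maximum 0.504).

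FPKM were summed per gene. Genes or transcripts with at least 1 FPKM in at least 2 samples were kept, and log2(FPKM + 1) was modelled on group alone in R 4.3.3, using limma 3.58.1 with a mean-variance trend (two-sided tests, prior degrees of freedom 2.87 for genes and 1.78 for transcripts), adjusted over all 11657 genes or 24996 transcripts. The thresholds follow the study's methods. The test was run on simulated data with known changes and noise drawn independently for each sample. Those data held no shift shared by same-numbered samples, so they cannot show its effect on the test. The members and gene lists were chosen with earlier results of these data known, and the lists were given no test. Beyond the members, up to 8 genes per list were named, those with the largest log2 fold change among genes whose groups did not overlap; 1 of them is not reported here. Exons came from GENCODE 44 lifted to GRCh37 (42 of 43 member transcripts matched, 28 with the same start and end) and promoters from RefSeq. Same-numbered samples share no stated source. Alternatives were other scaling, filters, pseudocount, variance and thresholds, the replicate block, the main transcript in place of the sum, leaving out each sample and, added after the data were seen, 1 other sum for SLMAP. Python 3.11.15 and matplotlib 3.10.9 were used for the figures.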

Additional observations from a re-analysis of the deposited data

How the results depend on the processing

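The 10 members stayed uncalled under every alternative run. Outside the leave-one-out fits, upper quartile scaling, the pseudocount of 0.1 and the main transcript in place of the sum could change a member's log2 fold change. Under these, 1 changed sign, that of AMOTL2, at -0.21 for its main transcript AMOTL2-202. For CTGF the main transcript is the sum itself. The filters, the replicate block and the robust variance leave the log2 fold change as it is by design, so they say nothing about its direction. When each sample was left out in turn, WWTR1 ranged from -0.61 to -0.23, TEAD1 from -0.35 to -0.28, LATS2 from -0.90 to -0.32 and VIRMA from -0.80 to -0.26, keeping their sign. YAP1 (-0.23 to -0.02), LATS1 (0.088 to 0.27) and STK4 (0.0053 to 0.62) also kept theirs, while STK3 (-0.097 to 0.14), CTGF (-0.095 to 0.20), CYR61 (-0.10 to 0.038) and AMOTL2 (-0.12 to 0.15) lay on both sides of 0. The pathway median ranged from -0.076 to -0.019 and the target median from -0.17 to -0.031 in these fits. Upper quartile scaling moved the pathway median to -0.014 and the median of all genes from -0.0083 to 0.0063. SLMAP changed from -1.004 to 0.16 when SLMAP-218 was left out of its sum, because that transcript was at 0 in shKIAA1429.

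F3 kept its direction when each sample was left out (-0.78 to -0.62), as did ANKRD1 (-0.68 to -0.30), MPP5 (-0.82 to -0.27), SIKE1 (0.27 to 0.73), WWC1 (-0.47 to -0.24), STRN4 (-0.47 to -0.19), NUAK2 (-0.55 to -0.26), FOXF2 (0.14 to 0.32), AXL (0.092 to 0.32), CCDC80 (0.089 to 0.17) and ARHGEF17 (0.061 to 0.11). DCHS1 was 1.62 with a pseudocount of 0.1, beside 1.04, and was not tested without a shKIAA1429 sample because it then failed the filter. Of all genes, 0 to 1 passed both thresholds when a sample was left out, the 1 being HIST4H4 without shCtrl replicate 1 (1.85 FPKM in shCtrl replicate 2 and 137 to 168 FPKM in the other samples), and 125 passed the fold change threshold alone (58 higher and 67 lower). A fit with a replicate block called 0 genes, and it gave 1269 genes an unadjusted p under 0.05, beside 656 without the block. In that fit the unadjusted p was 0.00688 for LATS2, 0.0256 for WWTR1, 0.0265 for TEAD1 and 0.0194 for VIRMA by limma (adjusted p = 0.371, 0.424, 0.424 and 0.420), and over 0.05 for the other 7 members. Over the genes tested, the deviations of replicate 1 from its group mean correlated at 0.32 between the groups. With 2 samples per group, replicate 2 deviates by the same amount in the opposite direction, so it adds no further value. The labels do not pair the samples. Depth is unknown, so precision rests on the spread of 2 samples per group.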
